A study of Rattus norvegicus with 15 samples.

Results

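Of 32545 rat genes counted in Rat1a cells, 84 stood at least 2-fold above the empty-vector line in each of 4 lines that carried mouse MYC. These 84 genes are described here line by line and library by library. They were chosen from the measured levels. Counts were divided by the library total to give CPM (counts expressed relative to the same library size) and averaged over the 3 libraries of a line. A gene was kept when its mean reached 1 CPM and 2 times the empty-vector mean in every MYC line. The rise over the empty vector is therefore a property of the choice and was not tested. The differences among the 4 MYC lines were tested, but they are not independent of the choice. The limits apply to the mean of each line, so a gene that is low in 1 line is left out.

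Rat1a is an established line of rat fibroblasts that grows attached to plastic, and all cultures were grown in the same high-glucose medium with serum. The empty-vector line (EV) is the control. The other lines stably expressed mouse MYC, either unmutated (WT) or with 1 lysine changed to arginine: K149R in the R149 line, K158R in R158 and K323R in R323. In these names the lysine comes before the residue number and the arginine after it. Each line had 3 replicates, and 1 stable line stood for each construct, so what belongs to the construct and what belongs to the line cannot be told apart. Equal replicate numbers are not said to share a day or batch. Every library came from RNA selected for poly(A) mRNA with a stranded kit. The libraries held between 13303631 and 108933235 counts. R158 replicate 1 was the shallowest and R149 replicate 3 the deepest.

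MYC is a transcription factor that pairs with MAX and binds E-box sequences at many active promoters. Its known targets include genes for ribosome production, nucleotide synthesis, amino acid uptake and cell division. Lysine residues in MYC can be acetylated. Arginine keeps the positive charge but cannot carry an acetyl group. Genes that respond to MYC can differ from one cell type to the next.

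The tables give rat Ensembl identifiers without names, and 0 of the 32545 identifiers were found in a RefSeq table of 47357 rat genes. No member could therefore be placed in a pathway, matched to a promoter sequence or compared with lists of MYC targets or fibroblast markers. The labelled cell type was not checked against markers for the same reason. RNA of the introduced mouse Myc can resemble the rat transcript, and whether the rat gene is among the 84 was not examined. Identifiers are printed for 4 members that the results turn on, and the others are described by their rank. Ranks run from 1 for the largest fold, by the geometric mean of the 4 folds over EV, to 84 for the smallest.

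Far more genes passed in a single line than in all 4. In R323, 255 genes reached 1 CPM and 2 times EV. R149 had 247 such genes, WT 229 and R158 202. At least 1 line was passed by 456 genes, and the 84 shared genes are 18.4% of these. They make up 41.6% of the genes that passed in R158, 36.7% of those in WT, 34% of those in R149 and 32.9% of those in R323. Another 211 genes passed in exactly 1 line, 97 in exactly 2 and 64 in exactly 3. All 4 comparisons use the same EV libraries, so a gene that is low in EV by chance has a larger fold over EV in every MYC line.

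**Figure D1:**
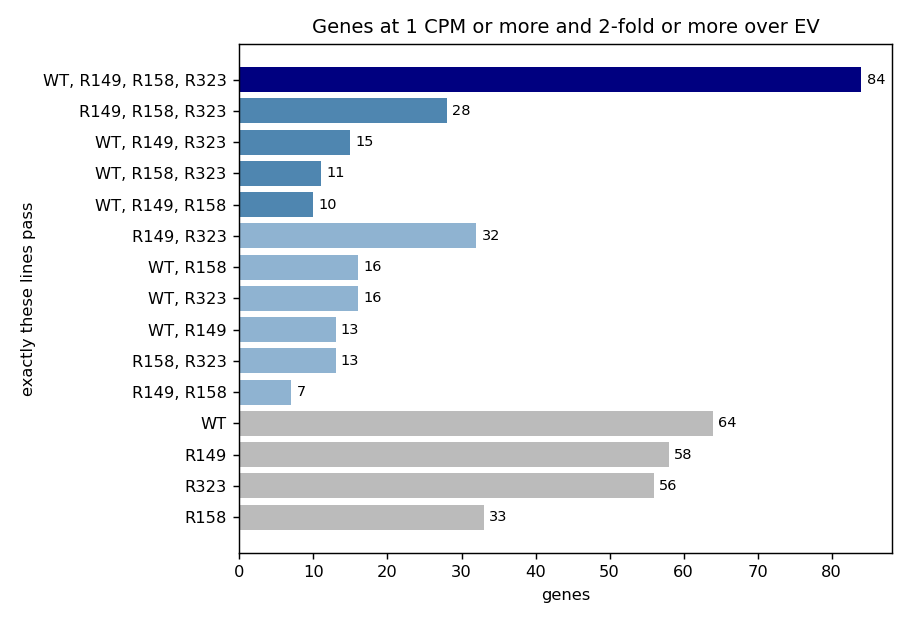
Number of genes (horizontal axis) that reached 1 CPM and 2 times the EV mean in exactly the lines named on the vertical axis. The 84 genes at the top passed in all 4 lines; among genes that passed in 3 lines, 28 missed only WT.

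Genes that missed in a single line mostly came close to it. Of the 64 genes that passed in exactly 3 lines, 28 missed WT, 15 missed R158, 11 missed R149 and 10 missed R323. The median fold over EV in the missing line was 1.83 for WT, 1.78 for R158, 1.79 for R149 and 1.86 for R323. At least 1.5-fold over EV was reached in the missing line by 26 of the 28, 14 of the 15, 8 of the 11 and 10 of the 10. Below the EV mean in the missing line were 2 genes, both of them missing R149. In 7 of the 64 the fold in the missing line reached 2, up to 5.86, and only the level of 1 CPM was missed. The other genes of the 64 fell short of 2-fold there. Just inside the limit, the lowest folds of 2 members were 2 in R323 and 2.01 in WT. Just outside it, the lowest folds of 2 other genes were 1.99 and 1.99, both in WT. Between 2 and 2.2 lay the lowest fold of 19 members, and between 1.8 and 2 that of 40 genes outside.

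The 84 genes ranged from scarce to abundant RNAs. In EV the median member stood at 1.6 CPM, 34 members were below 1 CPM, 33 lay between 1 and 10, 15 between 10 and 100 and 2 above 100. In the MYC lines the median member stood at 6.27 CPM in WT, at 6.41 in R323, 5.97 in R149 and 4.83 in R158. Together the members held 0.117% ± 0.00346 of all counts in EV (SD, n = 3). Their share was 0.344% ± 0.0103 in R149, 0.326% ± 0.0198 in R323, 0.319% ± 0.00947 in WT and 0.306% ± 0.00759 in R158. The most abundant member supplied much of these shares. Without it they were 0.0744% ± 0.00742 in EV, and 0.226% ± 0.00123, 0.232% ± 0.00749, 0.212% ± 0.00281 and 0.231% ± 0.00972 in WT, R149, R158 and R323.

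Most members stood a few fold above EV. The median fold over EV was 3.29 in R323, 3.15 in R149, 2.86 in WT and 2.81 in R158, while over 11624 genes with at least 1 CPM in every MYC line it was 1.01, 0.982, 1 and 0.979. Below 3-fold were 43 members in WT, 37 in R149, 47 in R158 and 31 in R323. At 10-fold or more were 10, 10, 9 and 9 members in the same order. Taken library by library, the median ratio to the EV mean ran from 2.85 to 3.03 in WT, from 3 to 3.26 in R149, from 2.66 to 3.07 in R158 and from 2.98 to 3.61 in R323. As ranges, the lines overlap. Compared within equal replicate numbers, which deviated together among the MYC lines, R149 and R323 were each above WT in 3 of 3 and above R158 in 3 of 3. WT was above R158 in 2 of 3, and R149 above R323 in 1 of 3. This order was not tested, since the members were chosen on these levels.

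**Figure D2:**
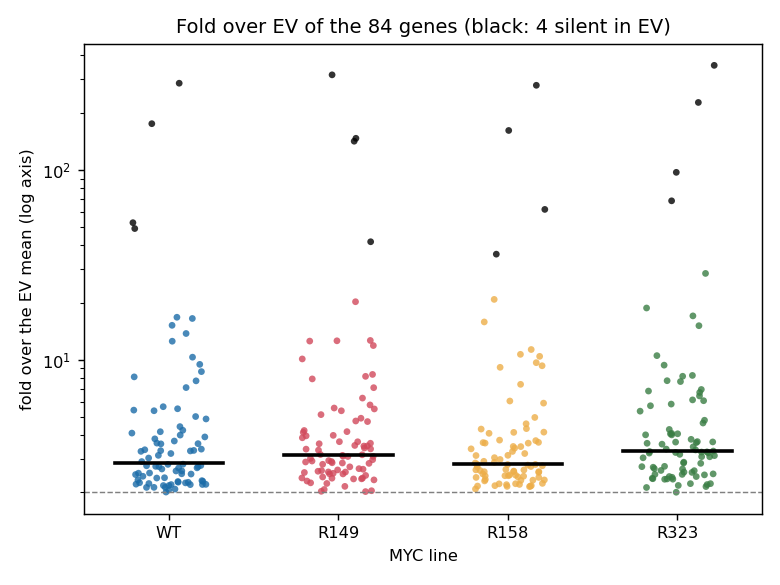
Fold of the line's mean CPM over the EV mean (log axis) for the 84 genes in each MYC line; each point is a gene, black points are the 4 genes below 0.1 CPM in EV, the black bar is the median and the dashed line the 2-fold limit. Medians lie between 2.81 and 3.29, and the 4 black points stand above most others in every line. Their large folds follow from the limits of 0.1 CPM in EV and 1 CPM in the MYC lines.

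The lines differed in how often each held the top place. R323 had the highest fold of the 4 lines for 33 members, R149 for 22, WT for 16 and R158 for 13. The lowest fold was in R158 for 31 members, in WT for 28, in R149 for 17 and in R323 for 8. The distances behind these places were mostly small. For 47 members the highest and lowest fold were within 1.5 times of each other, and the median distance was 1.4 times. A distance of 2 times or more was seen in 13 members and of 3 times or more in 5. The steadiest member had folds between 2.43 in R158 and 2.56 in R323, with a level of 1.67 CPM in EV.

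The largest folds belonged to members that are scarce in EV. Among the 30 members between 0.1 and 1 CPM in EV, the median of the geometric mean fold was 3.81, with a range of 2.29 to 18.7. It was 3.16 (2.13 to 15.4) among the 33 members between 1 and 10 CPM and 2.48 (2.31 to 13.6) among the 17 above 10 CPM. The requirement of 1 CPM in every MYC line shapes this order, because a scarce gene needs a larger fold to reach it. For members between 0.1 and 1 CPM the EV libraries held 12 to 79 counts in all, so single folds of scarce members carry wide counting error.

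**Figure D3:**
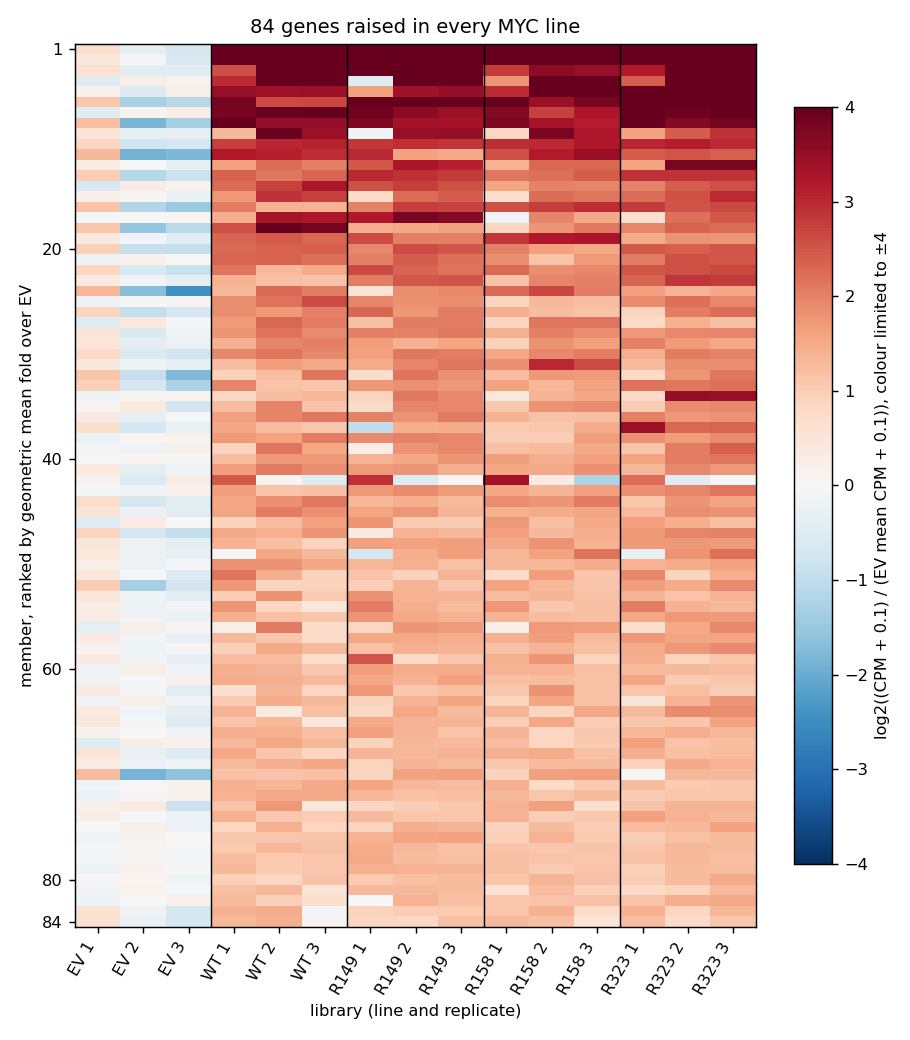
Log2 of (CPM + 0.1) over (EV mean CPM + 0.1) for the 84 genes (rows, ranked by the geometric mean fold) in the 15 libraries (columns, grouped by line); red is above the EV mean, blue below, and colour is limited to ±4. All MYC lines are red for nearly every gene, EV replicate 1 is redder than the other EV libraries, and single pale cells stand in R149 replicate 1.

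Silence in EV, a mean below 0.1 CPM, was met by 4 members, with 2 to 4 counts summed over the 3 EV libraries. The member of rank 1, ENSRNOG00000008465, stood at 0.156, 0.0224 and 0 CPM in EV replicates 1, 2 and 3. It stood at 14, 19.9 and 17.2 CPM in WT, 19.6, 17.9 and 19.1 in R149, 14.2, 19.7 and 15.9 in R158, and 16.7, 24.3 and 22.5 in R323. Every MYC library lay far above every EV library, and the 4 MYC lines overlapped. From counts pooled over libraries the ratio to EV was 347 in WT (95% exact conditional binomial interval 135 to 1274), 389 in R149 (152 to 1429), 358 in R158 (140 to 1318) and 450 in R323 (175 to 1653). The rule chose this gene on the same counts, so the ratios can lie too high and a coverage of 95% is not assured. Such intervals cover counting error only, without the spread between cultures. They overlap among the lines and rest on 4 counts in EV, 3 of them in replicate 1. Without EV replicate 1 the EV mean fell from 0.0596 to 0.0112 CPM, with 1 count left, a setting added after the data were seen. The pooled ratios were then 1064 in WT (191 to 42033), 1194 in R149 (214 to 47179), 1099 in R158 (197 to 43463) and 1380.1 in R323 (247 to 54547).

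The silent member of rank 2 had a similar profile at a lower level. It stood at 0.104, 0.0448 and 0 CPM in the EV replicates and at 7.42, 8.54 and 10.1 CPM in WT. In R149 it stood at 5.27, 8.2 and 8.37, in R158 at 8.27, 9.17 and 6.58, and in R323 at 9.58, 12.3 and 11.9 CPM. R323 was at the upper end, although its lowest library lay below the highest of WT. The pooled ratio to EV was 174 in WT (67.9 to 642), 159 in R149 (62 to 585), 169 in R158 (65.8 to 624) and 236 in R323 (91.9 to 869). Of its 4 EV counts 2 lay in replicate 1, and without that library the ratios were 268, 244, 260 and 362 in the same order. The limits given for the intervals of rank 1 apply here as well.

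The silent members of ranks 3 and 4 varied more, both between lines and between replicates. Rank 3 had 2 counts in EV, both in replicate 1, and stood at 0.708, 2.41 and 2 CPM in WT and 0.827, 1.5 and 1.42 CPM in R158. It reached 3.51, 5.96 and 5.27 CPM in R149 and 1.15, 3.97 and 4.99 CPM in R323. All 3 R149 libraries were above all WT and R158 libraries. The edgeR quasi-likelihood test, with Benjamini-Hochberg adjustment over all genes, gave no call for this member in any of the 6 comparisons between MYC lines. With the replicate number as a block it was called in R149 against WT, at a log2 difference of 1.67 ± 0.33 (SE) and an edgeR adjusted p of 0.00981, and in R149 against R158, at 2.02 ± 0.36 and 0.00577. Without the block these adjusted p were 0.146 and 0.0863.

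Rank 4 was low in replicate 1 of every MYC line. It stood at 1.02, 2.71 and 2.65 CPM in WT, 0.376, 3.27 and 3.85 in R158, and 0.657, 3.92 and 3.75 in R323. In R149 it had 0 counts in replicate 1, where 3 counts would be 0.0811 CPM, and stood at 2.76 and 2.3 CPM in the other replicates. The EV replicates stood at 0, 0.0672 and 0.054 CPM, so R149 replicate 1 overlapped EV while the other 11 MYC libraries did not. Its fold in R149 rests on replicates 2 and 3.

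Among members not silent in EV, rank 5 had the largest fold. Each EV replicate held 4 counts (0.208, 0.0896 and 0.216 CPM). The levels were 2.91, 2.75 and 2.82 CPM in WT, 0.73, 2.69 and 3.02 in R149, 2.03, 4.33 and 4.33 in R158, and 5.26, 4.99 and 4.39 in R323. No MYC library overlapped EV, and R323 lay above all the other MYC libraries.

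Rank 7 combined a large fold with a high level. It stood at 11.3, 17.6 and 19.2 CPM in EV. In WT it stood at 225, 251 and 329 CPM, in R149 at 233, 196 and 178, in R158 at 204, 108 and 152, and in R323 at 303, 240 and 275. Its mean fold over EV was 17 in R323, 16.7 in WT, 12.6 in R149 and 9.65 in R158. The R158 libraries lay below all WT and R323 libraries, but edgeR called none of its 6 differences between MYC lines. As for every member, whether this is the rat Myc gene was not examined. RNA of the introduced mouse Myc can resemble that transcript.

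The most abundant members had smaller and more even folds. The most abundant stood at 366, 472 and 438 CPM in EV, 1054, 856 and 900 in WT, 1150, 1109 and 1095 in R149, 985, 884 and 943 in R158, and 829, 1020 and 991 in R323. Its folds were 2.63 in R149, 2.22 in R323, 2.2 in WT and 2.2 in R158. The second most abundant stood at 120, 148 and 157 CPM in EV and at 375, 401 and 401 in WT. It stood at 355, 320 and 325 CPM in R149, 344, 307 and 337 in R158, and 287, 309 and 306 in R323, with folds between 2.12 in R323 and 2.77 in WT. In both genes every MYC library lay above every EV library.

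All 12 MYC libraries exceeded all 3 EV libraries for 67 of the 84 members. The same held for 11.5% of the 11624 genes at 1 CPM or more in every MYC line. As the members were chosen on this contrast, nothing is read from the difference. By line, no overlap with EV was seen for 79 members in R158, 79 in R323, 76 in WT and 73 in R149. The matching shares of all genes were not computed by line, so nothing is read from these counts either. Of the 17 members that overlapped, the highest EV library was replicate 1 for 13, and the lowest MYC library was R149 replicate 1 for 8.

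EV replicate 1 lay closer to the MYC lines for part of the members. Its level was at least 2 times that of both other EV libraries for 23 members, 27.4% of the 84, against 0.585% of the 11624 genes. The members are scarcer than most genes, and the share depends on the level. Below 1 CPM in EV it was 14 of 34 members and 7 of 40 other genes that reach 1 CPM in every MYC line. Between 1 and 10 CPM it was 7 of 33 members against 1.18% of 2368 other genes, and above 10 CPM 2 of 17 against 0.11% of 9132. The member of rank 8 is an example, with 3.28 CPM in EV replicate 1, 0.314 and 0.486 CPM in replicates 2 and 3, and 12.9 to 23 CPM in the MYC libraries. Rank 6 had 3.6, 0.605 and 0.702 CPM in EV and 10.8 to 43.1 CPM in the MYC libraries.

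Not every member followed that pattern in EV. In rank 7 and in both of the most abundant members, EV replicate 1 was the lowest EV library. The levels in EV varied more among members than among all genes, with a median coefficient of variation of 32.7% against 9.17%. Within the MYC lines the medians were 19.4% in WT, 19% in R158, 16.3% in R149 and 15.4% in R323, against 11.9%, 14.3%, 10.7% and 10.1% over the 11624 genes. These comparisons were not matched for level. At 10 CPM or more in EV were 17 of the 84 members and 9149 of the 11624 genes, and scarce genes carry more counting error. Without EV replicate 1 the same rule chose 121 genes, among them 81 of the 84. The median folds of the 84 members were then 3.44 in WT, 3.77 in R149, 3.4 in R158 and 3.98 in R323. What sets this library apart was not tested.

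Replicate 1 also held the lowest level in a MYC line more often than the other replicates. It did so for 38 members in WT, 43 in R149, 44 in R158 and 51 in R323. These are 45.2%, 51.2%, 52.4% and 60.7% of the members, against 47.5%, 50.5%, 39.2% and 53.3% of the 11624 genes. WT and R149 thus lay near all genes, and R158 and R323 above them. In all 4 lines at once it was lowest for 18 members (21.4%) and 20.8% of genes. At no more than 0.5 times both other libraries, replicate 1 stood for 14.3% of members in R149, 10.7% in R323 and 8.33% each in WT and R158. Of all genes it was 4%, 2.66%, 2.61% and 1.53%, in that order. The part of the members' scarcity in this was not tested. In single members the distance was large. Rank 9 stood at 0.866 CPM in WT replicate 1 and 5.98 and 4.25 in the others, and likewise at 0.27 against 4.28 and 4.4 in R149, 0.601 against 5.25 and 3.62 in R158, and 1.1 against 2 and 2.86 in R323. Rank 42 went the other way, as it stood at 2.73, 3.84, 5.11 and 2.35 CPM in replicate 1 of WT, R149, R158 and R323 and between 0.119 and 0.545 CPM in their other libraries. The EV libraries stood at 0.469, 0.246 and 0.54 CPM, so its place among the 84 rests on replicate 1. With replicates 2 and 3 alone, the rule chose 123 genes, among them 77 of the 84, and 7 of the 123 were silent in EV.

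The comparisons among the 4 MYC lines asked whether the size of the rise differed between lines. With 1 stable line per construct, they cannot assign a difference to the substituted lysine. All 84 members passed the filter on low counts, so each was tested, in 1 edgeR fit over 13676 genes and 15 libraries. Between R149 and WT 1 member was called at an adjusted p below 0.05, beside 1.18% of all genes. Between R158 and WT it was 0 members (0.6% of genes). Between R323 and WT 1 member was called (0.892%). Between R149 and R158 2 members were called (1.27%), between R149 and R323 0 (1.07%), and between R158 and R323 1 (0.936%). Shares of 0 to 2.38% of the members lie near those of all genes. At an unadjusted p below 0.05 the members numbered 15, 15 and 17 for R149, R158 and R323 against WT, which is 17.9%, 17.9% and 20.2% beside 11.4%, 11% and 8.19% of all genes. Between the mutants they were 13 for R149 and R158 (15.5% beside 9.52%), 11 for R149 and R323 (13.1% beside 11.4%) and 15 for R158 and R323 (17.9% beside 16.5%). The choice left out genes that were low in any MYC line, but it set no upper limit. These shares describe the 84 genes only. In all, 3 members were called in at least 1 comparison, and 81 in none. The same was not counted over all genes.

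Libraries of equal replicate number deviated together among the MYC lines, and a fit with the number as a block called more members. With the block, 6 members differed between R149 and WT (7.14%, beside 3.73% of all genes). It was 4 between R158 and WT (4.76% beside 1.78%) and 7 between R323 and WT (8.33% beside 2.36%). Between R149 and R158 5 differed (5.95% beside 2.79%). Between R149 and R323 it was 2 (2.38% beside 2.21%), and between R158 and R323 3 (3.57% beside 3.44%). In this fit 17 members were called in at least 1 comparison, among them the 3 already called. How many of all genes were called in at least 1 comparison was not counted. With replicates 2 and 3 alone, 22, 20 and 25 members differed between R149, R158 and R323, respectively, and WT, where 9.59%, 7.22% and 6.7% of genes were called. These are 26.2%, 23.8% and 29.8% of the members. Between the mutants the numbers were 12 for R149 and R158 (4.54% of genes), 9 for R149 and R323 (3.96%) and 23 for R158 and R323 (9.23%). Only 2 libraries per line remain in this setting. The calls over all genes rose too, from 162 to 1323 for R149 against WT.

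**Figure D4:**
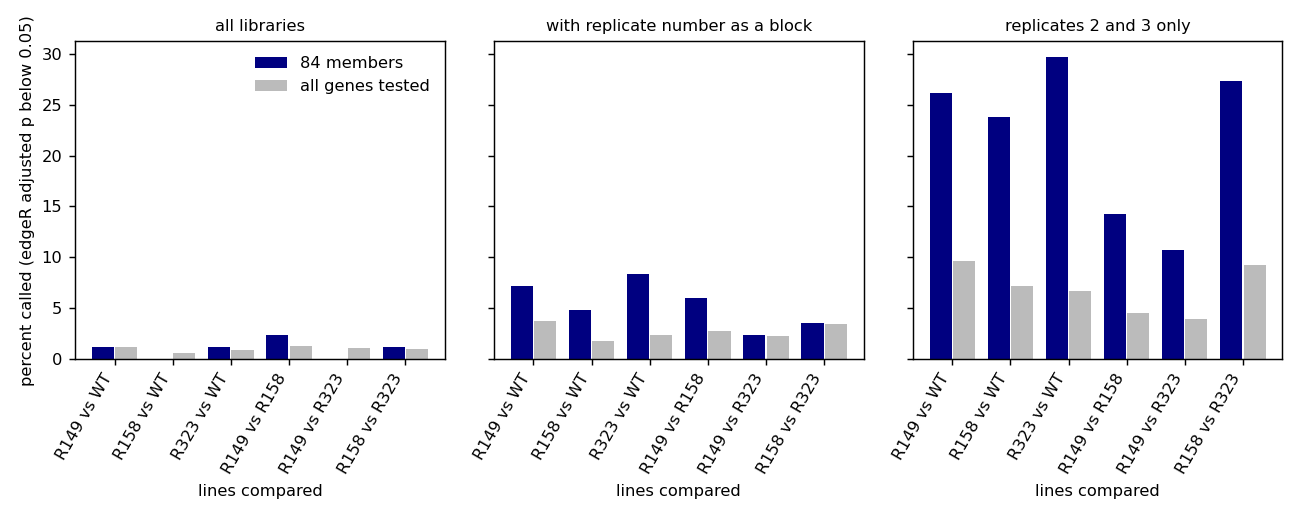
Percent of the 84 members (dark) and of all genes tested (grey) called by edgeR in the 6 comparisons between MYC lines, for all libraries, for a fit blocked by replicate number, and for replicates 2 and 3 only. With all libraries at most 2.38% of members were called. With replicates 2 and 3 only, which leaves 2 libraries per line, it was 10.7% to 29.8%. That was each time more than the share of all genes, which rose as well.

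The precision left room for moderate differences. The median standard error of a member's log2 difference was 0.28 between R149 and WT, 0.29 between R158 and WT and 0.28 between R323 and WT, against 0.16 to 0.17 over all genes. A 2-fold difference in either direction lay outside the 95% interval for 52 members in R149 against WT, 49 in R158 and 52 in R323, that is 61.9%, 58.3% and 61.9%. For all genes it was 79.6%, 79.8% and 80.4%. The median log2 difference of the members was 0.09, 0.03 and 0.08, and that of all genes 0.00, 0.01 and 0.00. A member that was not called is thus not shown to stand at the same level in both lines.

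Of the 3 called members, ENSRNOG00000007539 (rank 23) was higher in R149 and R323 than in WT. It stood at 1.25, 0.873 and 0.702 CPM in EV and at 2.65, 2.23 and 2.21 CPM in WT. It stood at 4.22, 5.69 and 5.83 CPM in R149, 2.18, 3.95 and 4.15 in R158, and 5.09, 7.5 and 7.11 in R323. All R149 and R323 libraries were above all WT libraries, while R158 overlapped WT. The log2 difference from WT was 1.18 ± 0.24 (SE) in R149, with an edgeR adjusted p of 0.0243, and 1.45 ± 0.25 in R323, with an adjusted p of 0.00714. The R149 call was lost without WT replicate 2 or 3 or R149 replicate 2 or 3 (adjusted p 0.0975 to 0.138), and the R323 call without WT replicate 2 (0.0501).

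ENSRNOG00000004731 (rank 19) was highest in R158. It stood at 2.35, 1.64 and 1.3 CPM in EV and at 13.3, 17 and 17.8 CPM in R158. It stood at 9.31, 10.1 and 8.98 CPM in WT, 11.1, 7.39 and 7.43 in R149, and 5.09, 6.37 and 6.22 in R323. All R158 libraries were above all those of the other lines, and all R323 libraries below them. The log2 difference between R158 and R323 was 1.49 ± 0.20 (SE), with an edgeR adjusted p of 0.00189 that stayed at or below 0.0152 over 21 alternatives. R149 was below R158, with a log2 difference of -0.89 ± 0.20 and an adjusted p of 0.0362. That second call was lost without EV replicate 2, WT replicate 2, R149 replicate 2 or 3, R158 replicate 2 or 3, or R323 replicate 2 or 3 (adjusted p 0.0551 to 0.187). With the replicate block R158 was also above WT, by a log2 difference of 0.81 ± 0.19 and an adjusted p of 0.0399.

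ENSRNOG00000025121 (rank 17) had the widest range of folds of all 84 members, from 2.63 in R158 to 12.6 in R149. It stood at 1.67, 1.79 and 1.89 CPM in EV, 5.09, 18.8 and 17.5 in WT, and 17.1, 26.3 and 23.9 in R149. In R158 it stood at 1.65, 7.12 and 5.28 CPM and in R323 at 2.85, 8.58 and 10.4. R158 replicate 1 overlapped EV, and no R149 library overlapped R158 or R323. The log2 difference between R149 and R158 was 2.21 ± 0.49 (SE), with an edgeR adjusted p of 0.0369. With the replicate block it was 4.2e-04, and the member was called in further comparisons: R149 was above R323 by a log2 difference of 1.82 ± 0.27 (adjusted p 0.00188), and R158 stood against WT at -1.44 ± 0.28 (0.0165). Without the block the adjusted p of these was 0.143 and 0.274. The adjusted p rose to between 0.0525 and 0.131 without R149 replicate 2 or 3 or any 1 of the R158 replicates, and to 0.0572 and 0.0565 without EV replicates 2 and 3. It was 0.0697 with limma-voom and 0.0503 with edgeR on library size alone.

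Members with a wide range of folds included some that edgeR did not call without the replicate block but called with it. Rank 18 was highest with wild-type MYC, at 3.17, 9.49 and 7.77 CPM in WT, and 1.41, 1.52 and 1.57 in R149. It stood at 0.902, 1.77 and 2.25 CPM in R158 and 2.03, 2.72 and 2.47 in R323, after 1.1, 0.0896 and 0.162 in EV. All WT libraries were above all mutant libraries. The log2 difference between R149 and WT was -2.12 ± 0.50 (SE), with an edgeR adjusted p of 0.0519, and 0.0229 with the replicate block.

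Rank 34 was highest in 2 of the R323 libraries. It stood at 8.27, 55.2 and 53.8 CPM in R323, 8.47, 11.3 and 12.1 in WT, 8.92, 20.7 and 18.4 in R149, and 6.31, 12.3 and 14 in R158. The EV libraries lay at 4.12, 4.99 and 5.08 CPM. R323 replicate 1 lay within the range of the other lines, where replicate 1 was the lowest library as well. The log2 difference between R323 and WT was 1.86 ± 0.48, with an edgeR adjusted p of 0.108, and 0.0119 with the replicate block. The block also called R158 against R323, at a log2 difference of -1.65 ± 0.33 and an adjusted p of 0.0142, against 0.0995 without it.

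**Figure D5:**
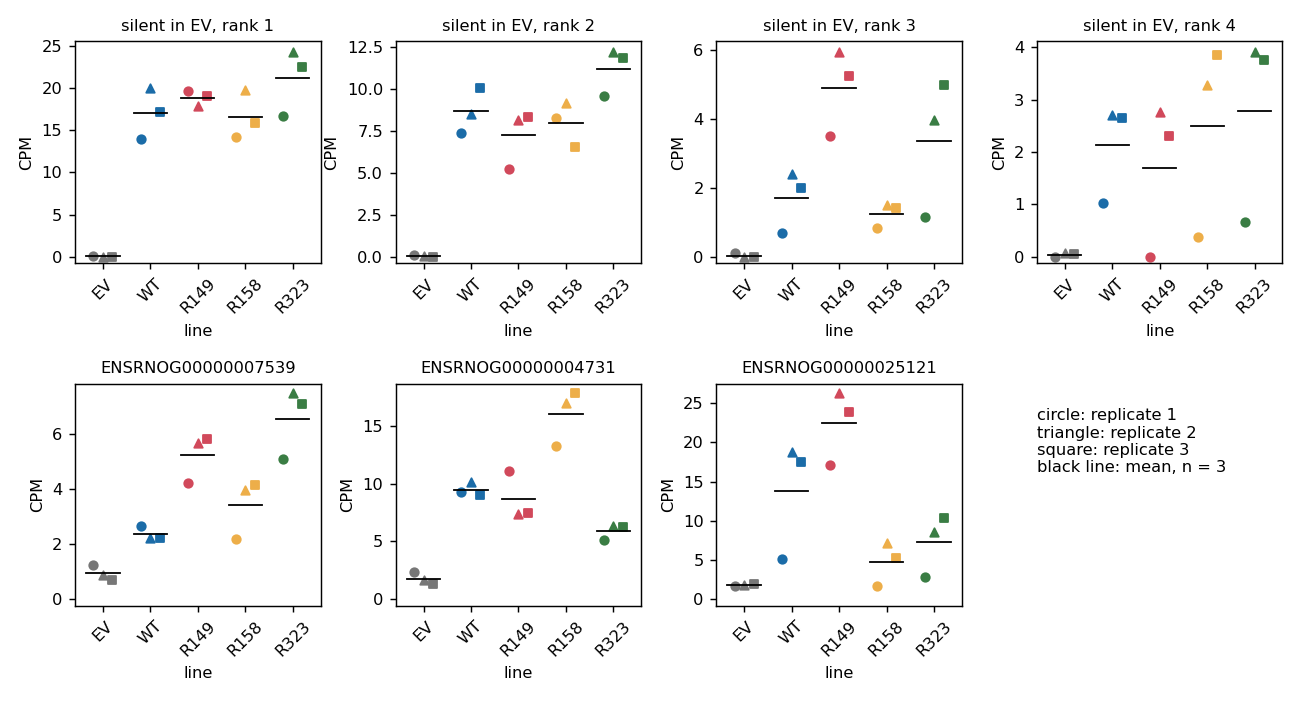
CPM in each library (points; circle, triangle and square are replicates 1, 2 and 3) with the mean of 3 libraries (black bar), by line, for the 4 members silent in EV and the 3 members called between MYC lines. The silent members sit near 0 in EV, and ENSRNOG00000004731 sits highest in all 3 R158 libraries.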

How the data were processed

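Polyadenylated RNA of 15 Rat1a cultures was sequenced, 3 for each of 5 lines. The deposited values are raw counts per Ensembl gene, 1 table per library. Per the submitters' processing notes, TopHat2 2.1.0 and Rnor_6.0 were used. How reads were counted, with which strand setting and annotation, is not given in the sources used here, so genes sharing or overlapping reads are uncertain.

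CPM is the count scaled to a common library total, with no TMM factor. Members and gene lists were chosen with earlier results of these data known. Counts were tested with edgeR 4.0.16 (R 4.3.3): filterByExpr (minimum count 10), TMM scaling, 1 quasi-likelihood fit with the line as term, and Benjamini-Hochberg adjustment over all genes. Alternatives used DESeq2 1.42.0, limma 3.58.1, other scalings, no filter, a replicate block and left-out libraries. On simulated counts for R149 against WT (13529 genes) the procedure recovered 22.4% of 1.5-fold, 85.1% of 2-fold and 87.9% of 4-fold changes, with 6 false calls among 136. The changed genes were drawn at random from all genes, and no effect of replicate number was simulated. Members are scarcer than most genes and had larger standard errors, so these shares do not carry over to them.

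Equal numbers from the labels were taken as pairs in the fit with the replicate block and in comparing medians by number. The fit with the line as term used no pairs. Deviations of same-numbered libraries correlated at 0.127 to 0.54 in every pair of MYC lines. The block also covered the EV libraries, for which this was not checked. No replicates agreed within sampling noise (chi-square per degree of freedom at least 4.43). P-values measure the spread between cultures of 1 line. The naming rule allowed 2 identifiers when no symbols could be had. ENSRNOG00000008465 was taken as its first choice, and the 3 members called between lines were named after their values were seen. The gene lists, cell type markers and promoter motifs that were planned need gene names and were not run.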

Additional observations from a re-analysis of the deposited data

Results flagged for a closer look

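Each of 3 members differed between 2 MYC lines by the edgeR test of the difference itself. The log2 difference of ENSRNOG00000007539 was 1.18 for R149 against WT and 1.45 for R323 against WT, with the R149 and R323 libraries above the WT libraries in 3 of 3 each. ENSRNOG00000004731 had a log2 difference of -0.89 for R149 against R158 and of 1.49 for R158 against R323, with the R158 libraries highest in 3 of 3. For ENSRNOG00000025121 the log2 difference was 2.21 for R149 against R158, with the R149 libraries higher in 3 of 3. Over 21 alternatives, only the call of ENSRNOG00000004731 for R158 against R323 held in all. The calls of ENSRNOG00000007539 held in 17 for R149 and in 20 for R323 against WT. For R149 against R158, the call held in 13 for ENSRNOG00000004731 and in 12 for ENSRNOG00000025121.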

How the results depend on the processing

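The 84 members became 90 with TMM-scaled CPM, 88 with DESeq2 size factors and 105 with the median over libraries, and between 75 (without EV replicate 3) and 121 (without EV replicate 1) with 1 library left out. The silent members numbered 6 without EV replicate 1 and 7 with replicates 2 and 3 only, a setting added after the data were seen, against 4 to 6 over all left-out libraries. Counts of members called are given in the order R149, R158 and R323 against WT, R149 against R158, R149 against R323 and R158 against R323, where the fit of all libraries gave 1, 0, 1, 2, 0 and 1. That fit called 162, 82, 122, 174, 147 and 128 of 13676 genes. DESeq2 gave 4, 5, 4, 5, 2 and 6, beside 396, 228, 270, 334, 286 and 424 of the 13676 genes. The fit with no filter gave 2, 2, 2, 3, 1 and 2, beside 205, 114, 168, 196, 171 and 170 of 20143 genes. The replicate block gave 6, 4, 7, 5, 2 and 3, and replicates 2 and 3 only gave 22, 20, 25, 12, 9 and 23. The shares of all genes in both fits are given above. With limma-voom the only count that moved was R149 against WT, to 2, and with library size alone it was R149 against R158, to 1. Of all genes, 194 and 151 were called there. With 1 library left out the counts ranged from 0 to 3, 0 to 3, 0 to 3, 0 to 4, 0 to 1 and 1 to 3. All genes called then ranged from 76 to 356, 19 to 206, 61 to 242, 69 to 205, 55 to 184 and 31 to 188. The highest counts came without EV replicate 1 (3, 2, 3, 4, 0 and 2), WT replicate 1 (3, 3, 2, 3, 1 and 1) and R323 replicate 1 (2, 0, 3, 3, 1 and 3). Without WT replicate 2 they were 0, 0, 0, 1, 0 and 1, and without WT replicate 3 0, 0, 1, 2, 0 and 1. Without R149 replicate 2 or 3 they were 0, 0, 1, 0, 0 and 1 each time. Without R158 replicate 1 they were 2, 1, 1, 1, 0 and 3, and without R158 replicate 2 they were 2, 0, 1, 1, 1 and 1. Without R149 replicate 1 R158 against WT gave 2. R149 against WT gave 2 and R149 against R158 0 without EV replicate 2, and R149 against R158 gave 1 without EV replicate 3, R158 replicate 3, R323 replicate 2 or R323 replicate 3. The 3 called members kept the sign of their difference in all 21 alternatives, and the call was lost in 22 of 105 settings. The cause of these shifts was not tested. Scarce members are limited by counting, with at most 79 counts over the EV libraries for members below 1 CPM there.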
